A study of Saccharomyces cerevisiae with 13 samples.

Results

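The genes described here encode stress transcription factors of *Saccharomyces cerevisiae*, the proteins that switch on protective genes when yeast is heated, oxidized, starved or burdened with misfolded protein. They were chosen by name: HSF1 (YGL073W), MSN2 (YMR037C), MSN4 (YKL062W), GIS1 (YDR096W), YAP1 (YML007W), CIN5 (YOR028C), SKN7 (YHR206W), RPN4 (YDL020C) and HAC1 (YFL031W). Of these 9 genes, 6 have a transcript model among the 4280 of the deposited values, and HSF1, CIN5 and HAC1 have none and were not analysed here. The study measured nascent RNA by nuclear run-on (NRO), in which RNA made by stalled polymerases in permeabilized cells takes up biotin-UTP and is pulled down with streptavidin, and also total RNA, an aliquot of the extract that skipped the pull-down. The 4 groups are NRO (HS) and total RNA (HS), from log phase cells kept for 20 min at 39°, and NRO and total RNA, from log phase cells at 30°. All are from the laboratory strain BY4742 in rich glucose medium, 3 libraries a group, and the NRO and total RNA libraries of log growth came from the same cultures. The heat shock libraries came from 6 independent cultures, and the study does not state which of these libraries share a culture.

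Each factor reads its signal in its own way, and in textbook accounts much of that control acts on the protein rather than on the amount of RNA. Hsf1 activates chaperone genes through heat shock elements and is held back by Hsp70. Msn2 and Msn4 are related zinc finger proteins that bind stress response elements and are kept out of the nucleus by protein kinase A. Gis1 is a zinc finger protein that acts below the kinase Rim15 when nutrients run short. Yap1 and Cin5 are basic leucine zipper proteins of the Yap family, and oxidation keeps Yap1 in the nucleus, where it activates antioxidant genes. Skn7 is the response regulator of the Sln1 and Ypd1 phosphorelay and works with Yap1 under oxidative stress. Rpn4 activates proteasome genes and is itself degraded by the proteasome. Hac1 drives the unfolded protein response once Ire1 has removed the intron of its RNA.

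The values are read densities, that is the average coverage of a gene's mappable bases outside introns, scaled to the bases each pool acquired. The first 200 bp after the transcription start site are left out. The authors merged the replicates, so that there is 1 pooled value for each gene and group and no spread between cultures. The depths are whole multiples of a single read in most models, which gives estimated reads for each value. All intervals below are 95% intervals of these reads, exact Poisson for a level, exact binomial for a ratio and exact conditional for a ratio of ratios. A density is a share of its pool, so that less RNA per cell and more RNA of other genes cannot be told apart, nor can fewer cells of a kind and less RNA in each. The intervals cover counting error only, and reads are not independent molecules after PCR. A ratio of 2 or more, or of 0.5 or less, is called higher or lower. The libraries hold an estimated 378273 reads in NRO (HS), 656630 in total RNA (HS), 2491144 in NRO and 894262 in total RNA. The medians are 8, 11, 69 and 23 reads a model, so that NRO (HS) is the least precise. In log growth both estimates of the total are below the read counts that the study reports. BY4742 is a strain of the alpha mating type without LYS2. The a-specific genes MFA1 and MFA2 and the gene LYS2 were listed at 0 in all 4 groups, and the a-specific gene STE2 had 2 reads, in total RNA. The alpha-specific genes of the check had no model. Of all 4280 models, 1322 were listed at 0 in NRO (HS), 844 in total RNA (HS), 695 in NRO and 600 in total RNA. A value of 0 alone therefore says little about the strain.

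The 6 regions are long, 1758 to 2836 bases against a median of 1227.5 bases over all models, and every base of them is mappable. None holds an intron. In sacCer2 coordinates and inside the genes, the region of MSN2 is on chromosome XIII (344285 to 346402, minus strand), that of MSN4 on XI (322935 to 325166, plus) and that of GIS1 on IV (637227 to 640062, plus). That of YAP1 is on XIII (253894 to 256021, plus), that of SKN7 on VIII (512634 to 514900, plus) and that of RPN4 on IV (414993 to 416750, minus).

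YAP1 had the highest read density of the 6 genes in every group, and RPN4 the lowest. YAP1, the regulator of antioxidant genes, had a density of 0.142 in NRO (HS) and 0.0694 in NRO, from 115 and 368 reads. In total RNA its density was 0.132 (HS, 184 reads) and 0.0883 (log growth, 168 reads). In NRO (HS) 83.9% of all models lay below it, and in NRO 72.8%. SKN7, the phosphorelay regulator, was the next in NRO (HS) at 0.0455 (39 reads) and in NRO at 0.0473 (267 reads). Its total RNA was lower, 0.00806 after heat shock (12 reads) and 0.0212 in log growth (43 reads). SKN7 thus stood near the top of the members by nascent RNA and below GIS1 by total RNA after heat shock.

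MSN2 and GIS1 had middling levels that differed by less than 2-fold between the groups. MSN2 had 0.0287 in NRO (HS) (23 reads), 0.0254 in NRO (134 reads), 0.0374 in total RNA (HS) (52 reads) and 0.0343 in total RNA (65 reads). GIS1 had 0.0326 in NRO (HS) (35 reads), 0.0198 in NRO (140 reads), 0.0204 in total RNA (HS) (38 reads) and 0.0197 in total RNA (50 reads). The intervals of the groups overlap for MSN2 throughout. MSN4, the partner of MSN2, had 0.00355 in NRO (HS) from 3 reads, but 0.0299 in NRO from 166 reads. In total RNA it had 0.00478 (HS, 7 reads) and 0.00852 (log growth, 17 reads). Its NRO value in log growth stands apart from its other values.

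**Figure D1:**
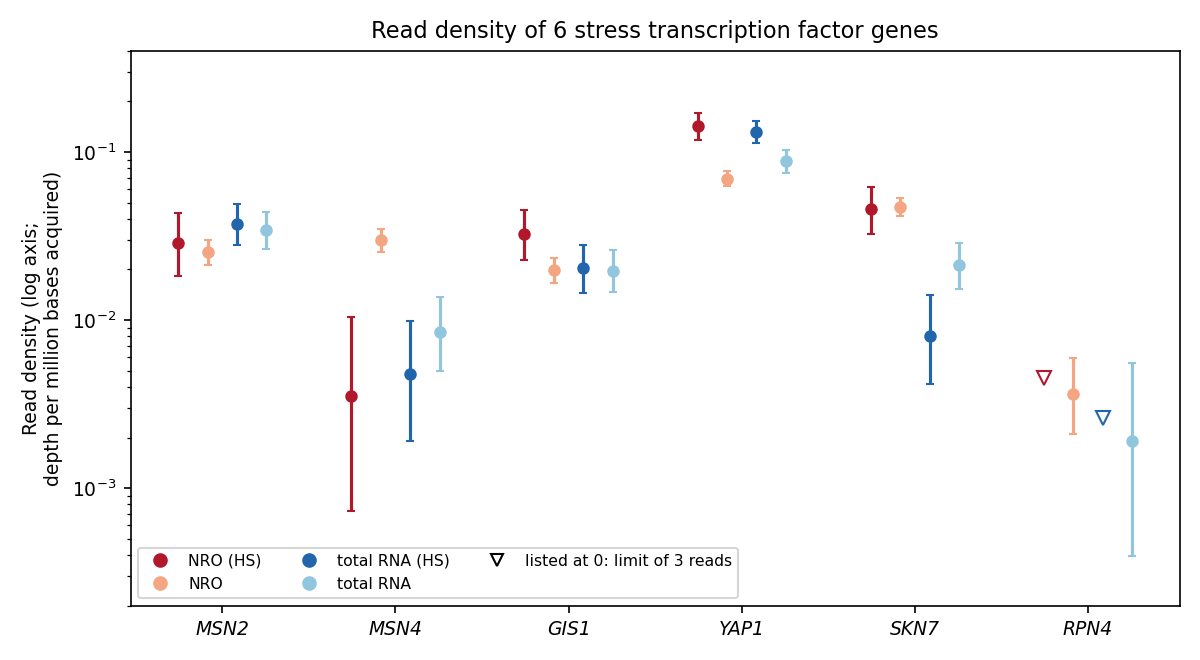
Read density (log axis, coverage scaled to the bases acquired) of the 6 genes in NRO (HS), NRO, total RNA (HS) and total RNA, 1 pooled value for each. Bars are 95% Poisson intervals of the estimated reads, and open triangles mark the density of 3 reads for RPN4, listed at 0 after heat shock. YAP1 is highest throughout, and MSN4 in NRO (0.0299) lies above its 3 other values.

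Most neighbours in the order of levels were apart by more than their counting error in log growth. In NRO the order was YAP1, SKN7, MSN4, MSN2, GIS1 and RPN4, and the intervals of the ratio of neighbours left 1 out except for MSN4 over MSN2 (1.18, 0.931 to 1.49). In total RNA the order was YAP1, MSN2, SKN7, GIS1, MSN4 and RPN4, and only SKN7 over GIS1 (1.08, 0.699 to 1.65) included 1. After heat shock the order in NRO (HS) was YAP1, SKN7, GIS1, MSN2 and MSN4, with RPN4 listed at 0. There YAP1 exceeded SKN7 3.13-fold (2.17 to 4.64) and MSN2 exceeded MSN4 8.08-fold (2.44 to 42.0), whereas SKN7 against GIS1 and GIS1 against MSN2 included 1. In total RNA (HS) the order was YAP1, MSN2, GIS1, SKN7 and MSN4, and SKN7 over MSN4 (1.69, 0.613 to 5.06) included 1.

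RPN4, the activator of proteasome genes, was close to the limit of detection. It had a density of 0.00365 in NRO from 16 reads and 0.00191 in total RNA from 3 reads, and it was listed at 0 in NRO (HS) and total RNA (HS). With no change, its log growth reads would predict 2.43 reads in NRO (HS) and 2.20 in total RNA (HS). A count of 0 allows up to 3 reads, a density of 0.00451 in NRO (HS) and 0.00260 in total RNA (HS), both above the log growth values. A fall of RPN4 was therefore not detectable at this depth. No fold is given, and a rise was not tested. The region of RPN4 overlaps the model of GPM2, on the opposite strand, over 1091 of its bases (62.1%). GPM2 itself was listed at 0 in both NRO libraries, with 2 reads in total RNA (HS) and 4 in total RNA. Of the 89 models overlapped over more than 50% of their length, 37.1% were listed at 0 in NRO and 32.6% in total RNA, against 14.6% and 12.3% of the 3102 models with no overlap. The part of the overlap in the low values of RPN4 was not tested. The overlap was 3.93% of the region for SKN7 and 4.65% for GIS1, and MSN2, MSN4 and YAP1 had none. Of the proteasome genes, which all cells use, RPN12 was also near 0, with 3 reads in total RNA (HS), 1 in NRO and none in the others. In NRO PRE9, RPN3 and RPN7 were listed at 0, RPN9 had 2 reads, RPN8 had 4 and RPN5 had 8. The other proteasome genes of the list of Rpn4 targets with a model had more than 10 reads in NRO.

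The first question was how nascent RNA compares with total RNA, a ratio that the study uses as an estimate of transcript stability. In log growth MSN4 and SKN7 had ratios of NRO to total RNA above 2, and the other 4 genes did not. MSN4 had a ratio of 3.51 (2.12 to 6.16), and 91.4% of all genes lay below it. SKN7 had a ratio of 2.23 (1.61 to 3.15). For RPN4 the ratio was 1.91 (0.548 to 10.3), an interval too wide for a statement. GIS1 was at 1.01 (0.723 to 1.42), MSN2 at 0.740 (0.546 to 1.01) and YAP1 at 0.786 (0.653 to 0.949), so that the NRO density of YAP1 was below its total RNA density by more than counting error. Thus 2 of 6 genes were called higher and 0 lower, where 21.8% of the 3400 genes with both values were called higher and 19.0% lower. The median log2 ratio was 0.47 over the 6 genes and -0.01 over all genes.

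After heat shock only SKN7 of the 5 genes with both values had a ratio above 2. Its NRO (HS) to total RNA (HS) ratio was 5.64 (2.89 to 11.8), with 95.6% of all genes below it. GIS1 had a ratio of 1.60 (0.981 to 2.60), YAP1 of 1.08 (0.852 to 1.38) and MSN2 of 0.768 (0.448 to 1.28). The ratio of MSN4 was 0.744 (0.124 to 3.26), from 3 and 7 reads, and its interval holds both a ratio under 0.5 and the log growth value's lower bound. The call of 1 gene higher and 0 lower stands beside 24.4% and 12.9% of 2831 genes. The median log2 ratio of all genes was 0.22, and that of the 5 genes 0.11.

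**Figure D2:**
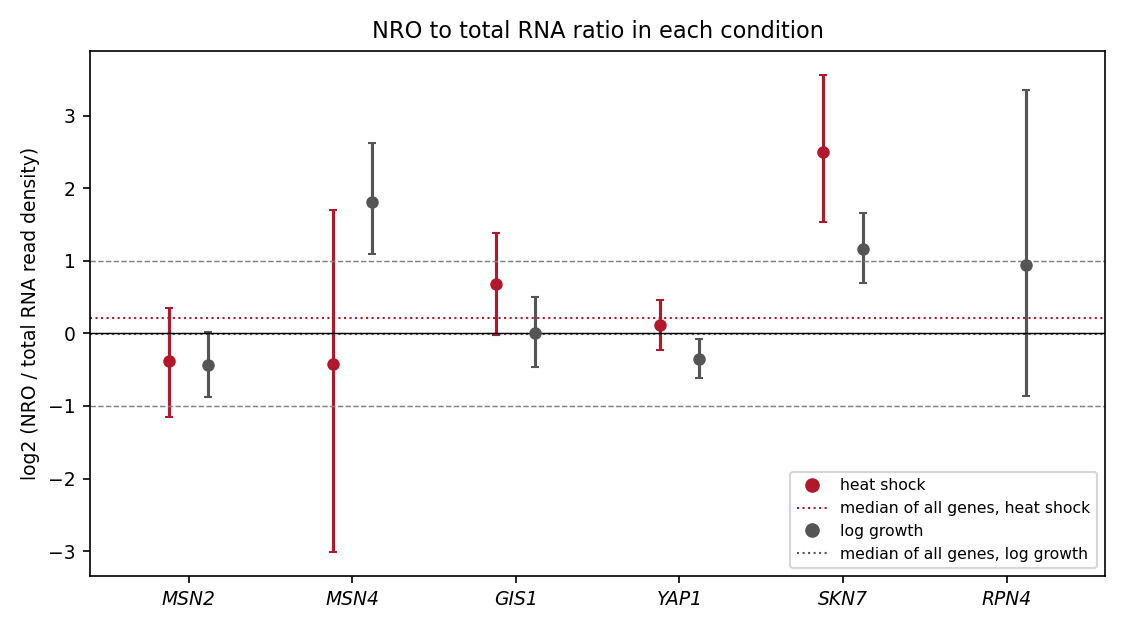
Log2 NRO to total RNA ratio for each gene after heat shock and in log growth, with 95% counting intervals. Dashed lines mark 2-fold, dotted lines the median of all genes, and RPN4 has no value after heat shock. SKN7 lies above 2-fold in both conditions, and MSN4 only in log growth, with a wide interval after heat shock.

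The second question was whether heat shock changed the transcription of these genes. YAP1 rose in NRO, MSN4 fell, and MSN2, GIS1 and SKN7 stayed within 2-fold. The NRO (HS) to NRO ratio of YAP1 was 2.05 (1.65 to 2.54), and the lower bound of this interval is below the limit of a call. For MSN4 it was 0.119 (0.0243 to 0.354): its log growth reads would predict 25.2 reads in NRO (HS) with no change, and 3 were found. GIS1 had a ratio of 1.65 (1.10 to 2.40), above 1 by more than its counting error but not at 2. MSN2 was at 1.13 (0.693 to 1.77) and SKN7 at 0.962 (0.669 to 1.35), and these intervals leave out a 2-fold change in either direction. Of the 5 genes, 1 was called higher and 1 lower, beside 16.2% and 23.1% of 2894 genes. The median log2 change was 0.18 for the 5 genes and -0.10 for all genes. MSN4 was among the steepest falls, with 2.45% of all genes below it.

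In total RNA no gene of the 5 rose to 2-fold, and SKN7 fell. SKN7 had a ratio of total RNA (HS) to total RNA of 0.380 (0.182 to 0.734), from 12 and 43 reads. YAP1 had a ratio of 1.49 (1.20 to 1.85), GIS1 of 1.04 (0.660 to 1.61) and MSN2 of 1.09 (0.742 to 1.59). MSN4 had 0.561 (0.197 to 1.42), an interval that includes no change. The call of 0 higher and 1 lower stands beside 10.2% and 27.7% of 3282 genes. The median of all genes moved by -0.41 on the log2 scale in total RNA, a ratio of 0.754. Relative to this median, YAP1 was at 1.98, MSN2 at 1.45 and GIS1 at 1.37, and SKN7, at 0.504, was no longer called.

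**Figure D3:**
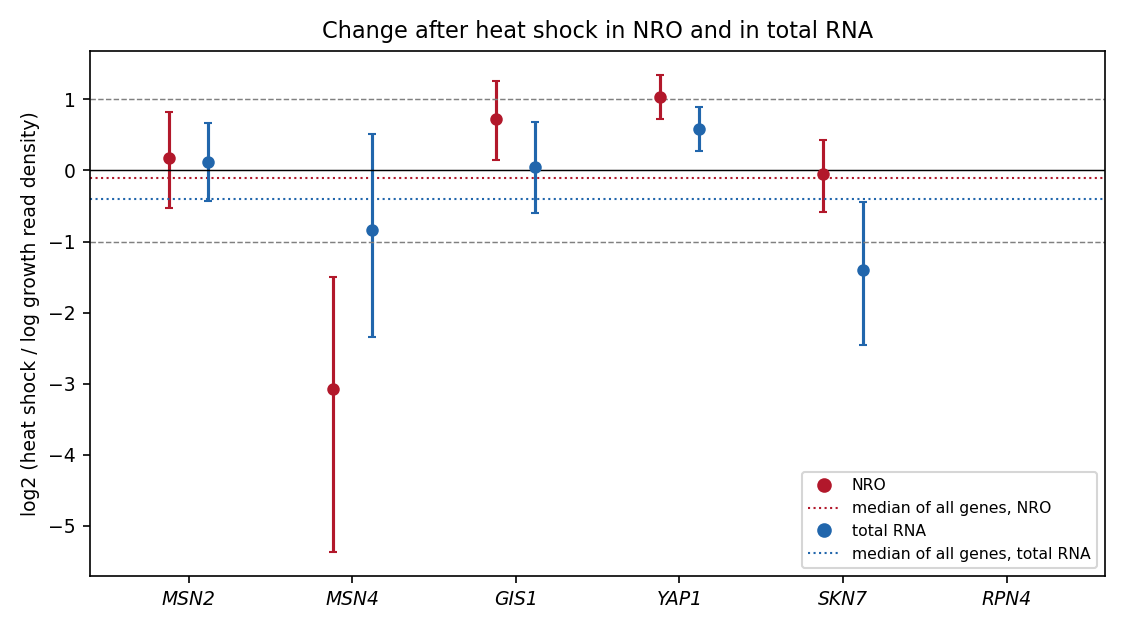
Log2 ratio of heat shock to log growth read density in NRO and in total RNA for each gene, with 95% counting intervals. Dashed lines mark 2-fold and dotted lines the median of all genes. MSN4 lies below 2-fold in NRO and SKN7 in total RNA, YAP1 lies at 2-fold in NRO, and RPN4 has no value.

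The difference between the NRO change and the total RNA change was then taken for each gene, as the ratio of the NRO to total RNA ratio after heat shock to that in log growth. SKN7 had the highest value, 2.53 (1.18 to 5.75), since its total RNA was lower after heat shock while its nascent RNA was at 0.962 of the log growth level. YAP1 had 1.37 (1.01 to 1.88), GIS1 1.59 (0.874 to 2.90) and MSN2 1.04 (0.558 to 1.91). MSN4 had 0.212 (0.0336 to 1.07), so that the larger fall of its nascent RNA was not apart from that of its total RNA by counting error. Of the 5 genes, 1 was called higher and 1 lower, beside 23.7% and 14.9% of 2781 genes. The median of all genes was 1.15, and relative to it SKN7 was at 2.20 and YAP1 at 1.20. These values and the changes above rest on the same 4 pooled values and are not separate evidence.

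**Figure D4:**
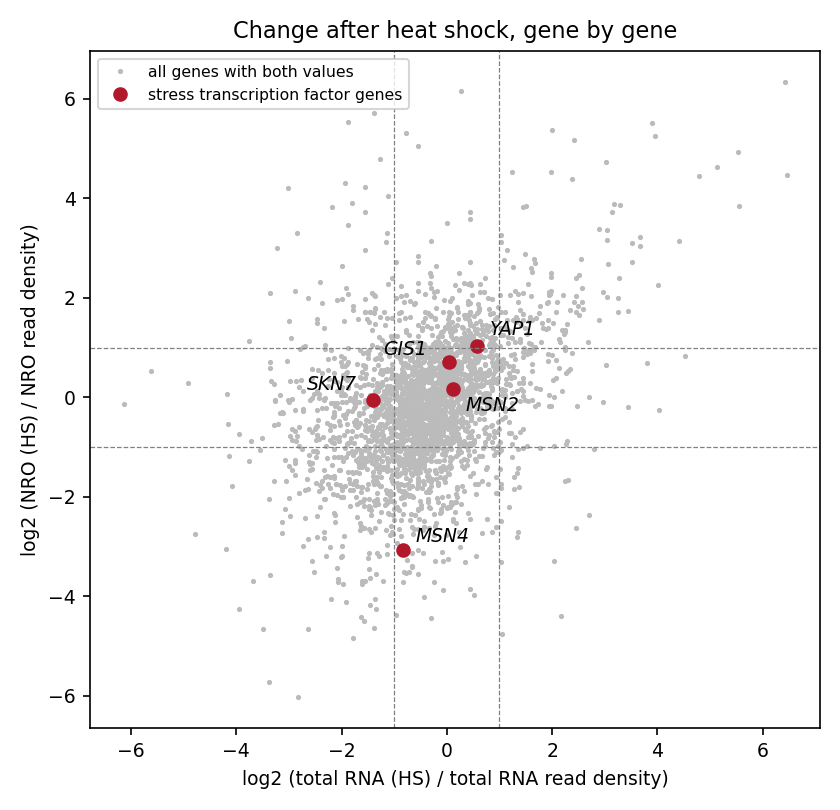
Log2 change after heat shock in NRO (vertical) against total RNA (horizontal) for all genes with both values (grey) and for the 5 stress transcription factor genes (red). Dashed lines mark 2-fold. YAP1, GIS1, MSN2 and SKN7 (-1.40 in total RNA, with 17.7% of genes lower) lie inside the main cloud, and MSN4 near its lower edge (-3.07 in NRO).

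MSN2 and MSN4 encode proteins that bind the same element, which makes their levels worth setting side by side. The density of MSN4 over that of MSN2 was 0.124 (0.0238 to 0.410) in NRO (HS) and 1.18 (0.931 to 1.49) in NRO. In total RNA it was 0.128 (0.0490 to 0.282) after heat shock and 0.248 (0.136 to 0.428) in log growth. In log growth nascent RNA of the pair was thus about even, whereas total RNA of MSN4 was 4.03-fold lower than that of MSN2. The MSN4 over MSN2 ratio was 4.74-fold (2.59 to 9.01) higher in NRO than in total RNA in log growth. After heat shock it differed by a factor of 0.969 (0.149 to 4.73), an interval that includes 1 and overlaps that of log growth. Between the conditions, the MSN4 over MSN2 ratio in NRO changed by a factor of 0.105 (0.0199 to 0.362), and in total RNA by 0.515 (0.168 to 1.43).

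Many genes that Hsf1, Msn2 and Msn4 are known to activate were called higher after heat shock. The lists were drawn from general knowledge of the factors, some genes answer to more than 1 factor, and genes listed at 0 have no ratio. Of the targets of Msn2 and Msn4, 14 of 18 were called higher and 1 lower in NRO, with a median log2 change of 2.56, and 17 of 18 higher and 0 lower in total RNA, with a median of 2.93. HSP12, a small membrane-stabilizing protein, was the highest in NRO (6.35) and in total RNA (6.42), and TPS2, the phosphatase of trehalose synthesis, the lowest (-3.29, from 2 NRO (HS) reads and 128 NRO reads, and -0.07). CTT1, the cytosolic catalase, had a log2 change of 0.83 in NRO (14 and 52 reads) and 4.53 in total RNA (51 and 3 reads). Its log2 ratio of NRO to total RNA in log growth, 2.64, which rests on the same 3 total RNA reads, was the highest of the list, and that of GAD1 the lowest (-2.30). Of the Hsf1 targets, 14 of 23 were called higher and 1 lower in NRO (median 1.57), and 14 of 24 higher and 0 lower in total RNA (median 1.75). The Hsp70 gene SSA4 was the highest of them (4.93 in NRO, 5.52 in total RNA) and the J-domain protein gene APJ1 the lowest (-1.10 and -0.45). Both medians lie far above those of all genes, -0.10 in NRO and -0.41 in total RNA, and above every value of the 5 factor genes.

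Targets of the other factors had medians nearer to those of all genes. Over all genes 16.2% were called higher and 23.1% lower in NRO, and 10.2% higher and 27.7% lower in total RNA. The share called higher was 12.5% of the Yap1, 30.4% of the Rpn4 and 20% of the Hac1 targets in NRO, and 44.4%, 10.3% and 25% in total RNA, each of a short list. Of the Yap1 targets, 1 of 8 was called higher and 1 lower in NRO, and 4 of 9 higher and 2 lower in total RNA, with medians of 0.24 and 0.45. The peroxidase gene CCP1 was the highest in NRO (1.71) and the drug transporter gene FLR1 the lowest (-2.31). In total RNA the extremes were the glutathione reductase gene GLR1 (1.40, from 11 and 5 reads) and the transporter gene ATR1 (-1.14). Of the proteasome genes, the targets of Rpn4, 7 of 23 were called higher and 2 lower in NRO, and 3 of 29 higher and 2 lower in total RNA, with medians of 0.50 and 0.27. The core particle genes PRE6 (2.77) and PRE3 (-1.72) were the extremes in NRO. In total RNA they were RPN7 (1.45, from 2 and 1 reads) and PRE4 (-1.24). Of the Hac1 targets, 1 of 5 was called higher and 2 lower in NRO, and 2 of 8 higher and 1 lower in total RNA, with medians of -0.31 and 0.10. ERO1, the oxidase of disulfide formation, had a log2 change of 2.48 in total RNA and -0.17 in NRO, and JEM1, a J-domain protein of the endoplasmic reticulum, had -3.95 and -4.25 from 1 read in each heat shock library. SIL1 was called lower in NRO (-2.23, from 1 and 31 reads), SCJ1 higher in NRO (1.04) and LHS1 higher in total RNA (1.45, from 8 and 4 reads). The counting intervals of these changes of SIL1 and LHS1 include no change. In log growth the ratio of NRO to total RNA was called higher for ERO1 (2.05), HRD1 (1.57, from 25 and 3 reads) and JEM1 (1.10). It was called lower for LHS1 (-1.89, from 3 and 4 reads) and SCJ1 (-1.70), and after heat shock for SIL1 (-1.79, from 1 and 6 reads). The counting intervals of these ratios of HRD1, LHS1 and SIL1 include equal NRO and total RNA.

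**Figure D5:**
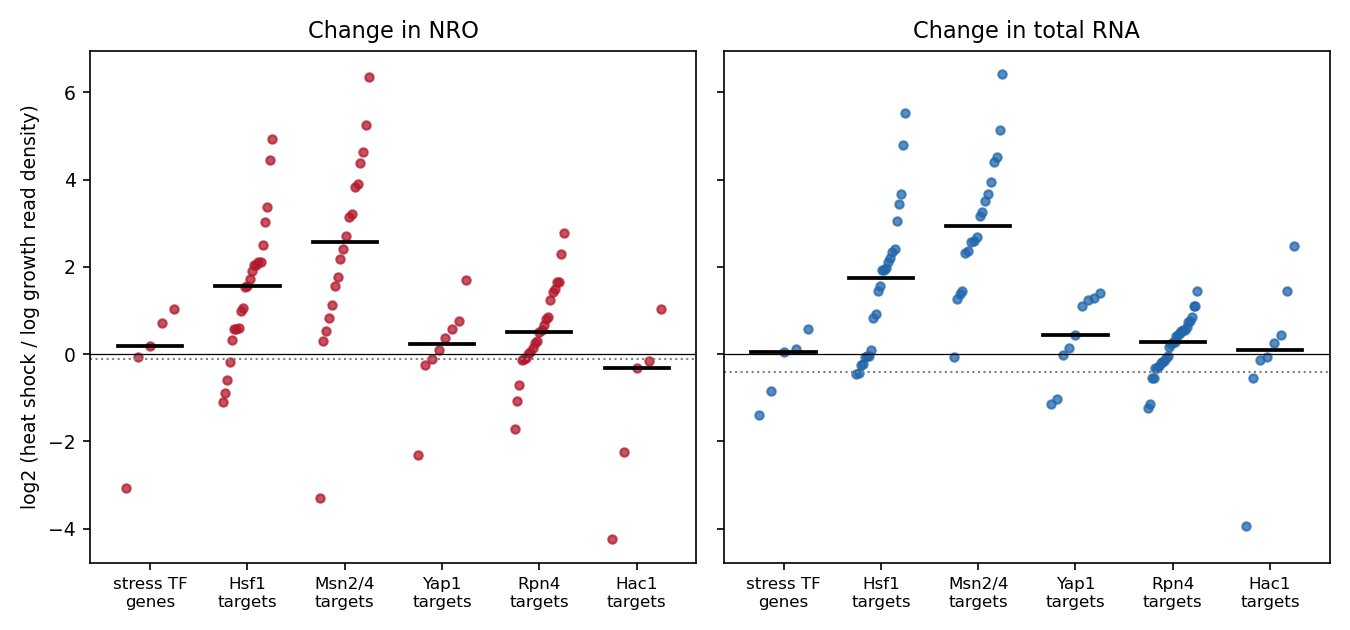
Log2 change after heat shock in NRO (left) and in total RNA (right) of the 5 stress transcription factor genes with a value and of the known targets of Hsf1, Msn2 and Msn4, Yap1, Rpn4 and Hac1, 1 point a gene. Black bars are list medians and the dotted line the median of all genes. The medians of the Hsf1 (1.57 and 1.75) and Msn2 and Msn4 (2.56 and 2.93) targets lie above all points of the factor genes.

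The median ratios of NRO to total RNA of the Hsf1, Msn2 and Msn4, Yap1 and Rpn4 targets lay below those of the factor genes, whereas the Hac1 targets had -0.59 after heat shock and 0.78 in log growth. Over all genes 24.4% were called higher and 12.9% lower after heat shock, and 21.8% and 19.0% in log growth. The median log2 ratios of all genes were 0.22 and -0.01. Of the Hsf1 targets, 2 of 23 were called higher and 9 lower after heat shock, and 3 of 24 higher and 7 lower in log growth. Their median log2 ratios were -0.93 and -0.66. The extremes were APJ1 (1.33) and HSP42 (-1.75) after heat shock, and APJ1 (1.98) and the cochaperone gene SBA1 (-2.40) in log growth. Of the Msn2 and Msn4 targets, 1 of 18 was called higher and 9 lower after heat shock, and 1 of 18 higher and 5 lower in log growth, with medians of -0.95 and -0.27. After heat shock the aldehyde dehydrogenase gene ALD3 was the highest (2.80, from 8 NRO (HS) and 2 total RNA (HS) reads) and HOR7 the lowest (-3.03, from 2 and 22 reads). For the Yap1 targets the medians were -0.20 after heat shock (ATR1 1.58 to GLR1 -1.61, the latter from 2 and 11 reads) and -0.13 in log growth (FLR1 2.12 to CCP1 -1.79). For the proteasome genes they were 0.0048 (PRE4 1.40 to RPN2 -1.32) and -0.46 (RPN11 1.46 to RPN9 -2.48, the latter from 2 and 4 reads). The factor genes had 0.11 after heat shock and 0.47 in log growth, and the difference between the lists was not tested.

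Related factors and regulators were measured in the same way, and all values for them are log2 ratios. Of the other Yap family genes, 5 of 6 have a model, and YAP6 was listed at 0 in all 4 groups. CAD1, also known as YAP2, was called lower in NRO after heat shock (-1.59, from 21 and 416 reads) and had -0.37 in total RNA, where its relative YAP1 had 1.04 and 0.58. YAP5 (-1.57, 6 and 25 reads) and ARR1 (-1.79, 2 and 9 reads) were called lower in total RNA. YAP5 had a ratio of NRO to total RNA of 1.19 after heat shock, from 8 and 6 reads, and -0.63 in log growth. The counting intervals of the ARR1 change and of the heat shock ratio of YAP5 include a log2 ratio of 0. YAP3 had 5 reads in NRO, and less than 1 read in total RNA, behind its ratio of 2.77. MGA1, the only other gene for an Hsf-type DNA-binding domain with a model, had a ratio of NRO to total RNA of 3.02 after heat shock and 3.00 in log growth, from 3 and 8 total RNA reads.

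The zinc finger genes near Msn2, Msn4 and Gis1 are RPH1, COM2, USV1, RGM1 and CRZ1. In log growth 3 of these 5 genes had a ratio of NRO to total RNA called higher, where 21.8% of all genes did. RPH1, the paralog of GIS1, had 1.55 after heat shock and 1.22 in log growth, beside 0.68 and 0.01 for GIS1. RGM1 had 1.47 and 2.19. COM2 turned round, with -1.26 after heat shock and 1.19 in log growth, since it was called lower in NRO (-1.45) and higher in total RNA (1.00). USV1 was called higher after heat shock in NRO (1.36, 7 and 17 reads) and in total RNA (2.25, 21 and 6 reads). The counting interval of its NRO value includes no change. Of the 5 measured osmotic and drug response factors, WAR1 had a ratio of NRO to total RNA of 2.38 after heat shock and 1.25 in log growth, PDR1 of 1.61 and 0.97, and YRR1 of 0.10 and 2.19. YRR1 was called lower in NRO (-2.16) and WAR1 in total RNA (-1.64), from 4 heat shock reads each.

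Of the regulators of Msn2, Msn4 and Gis1, 8 have a model. In NRO the exportin gene MSN5 (-2.27), WHI2 (-1.73, 7 and 153 reads) and the protein kinase A gene TPK2 (-1.05, 3 and 42 reads) were called lower after heat shock. The counting interval of the TPK2 change includes no change. In total RNA 0 of 8 were called in either direction. Over all genes 16.2% were called higher and 23.1% lower in NRO, and 10.2% and 27.7% in total RNA. In log growth the ratio of NRO to total RNA was called higher for the kinase gene RIM15 (1.51), WHI2 (1.46), TPK2 (1.35) and PSR1 (1.26), and lower for PSR2 (-1.08). After heat shock only MSN5 (-1.60) was called. For this ratio 21.8% of all genes were called higher and 19.0% lower in log growth, and 24.4% and 12.9% after heat shock.

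The regulators of the other factors differed among themselves. SLN1, the sensor kinase above SKN7, was called lower in NRO (-1.74), with -0.74 in total RNA, and its ratio of NRO to total RNA was 0.01 after heat shock and 1.02 in log growth. SSK1, the other response regulator of that relay, had ratios of 1.10 and 0.71, and YPD1 was listed at 0 throughout. Among the regulators of Yap1, the thioredoxin gene TRX2 was called higher in total RNA (1.23) and had ratios of -0.20 after heat shock and 1.27 in log growth. The exportin gene CRM1 was called lower in total RNA (-1.14, 8 and 24 reads), with a ratio of -1.54 in log growth. The peroxidase gene HYR1 was not called in any of these, but its shift of the ratio was 1.36. The counting intervals of the CRM1 change in total RNA and of the HYR1 shift include no change. RAD6, whose product takes part in the degradation of Rpn4, was called higher in NRO (1.70), with -0.90 in total RNA and ratios of 1.01 after heat shock and -1.60 in log growth. The HAC1 processing genes IRE1 and TRL1 have no model, and TPT1 was listed at 0 throughout.

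The other transcription factor genes, 34 with a model, give a wider comparison. They were matched only by words in their product names, so that genes of other roles can be among them. PDR1 and CRZ1 are also in lists above. In log growth 5 of 31 had an NRO to total RNA ratio called higher and 1 lower, with a median log2 ratio of 0.58, beside 0.47 for the stress factor genes and -0.01 for all genes. After heat shock 8 of 29 were called higher and 2 lower, with a median of 0.53. Over all genes 21.8% were called higher and 19.0% lower in log growth, and 24.4% and 12.9% after heat shock, so that the shares called higher lie near those of all genes. Their median log2 change was -0.58 in NRO (3 of 29 higher, 5 lower) and -0.34 in total RNA (2 of 31 higher, 4 lower), where the stress factor genes had 0.18 and 0.05. The medians of all genes for these changes were -0.10 and -0.41. Of all genes 16.2% were called higher and 23.1% lower in NRO, and 10.2% and 27.7% in total RNA. No difference between these lists was tested.

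Likeness over the 4 groups was measured as the distance between the log2 densities, among genes with at least 10 reads in every group. MSN2 was nearest to BPL1, the biotin protein ligase gene, at a distance of 0.11. YAP1 was nearest to ATO3, a putative ammonium permease gene (0.31), GIS1 to CKI1, for choline kinase (0.34), and SKN7 to THI7, the thiamine transporter gene (0.38). Each is the closest of 1860 genes over 4 values. THI7 had the same arrangement as SKN7, with densities of 0.0357 in NRO (HS), 0.0436 in NRO, 0.00857 in total RNA (HS) and 0.0220 in total RNA. MSN4 and RPN4 had too few reads for this.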

How the data were processed

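Strand-specific NRO and total RNA libraries from BY4742 were analysed from 4 pooled tables, which hold 12 of the 13 libraries in the labels. The NRO library from 3′ ends was not analysed here. Maq placed the reads on sacCer2. The authors kept mapping qualities of at least 30, left out rDNA and merged replicates. They deposited coverage: a summed base depth and a read density for each region, divided by the bases acquired. From the common step of the depths the bases acquired were recovered, and the read length as the length that divides most depths of up to 20 reads. It was 36 bases, but 38 in total RNA, where 79.1% of such models were whole at 38 bases and 2.08% at the stated 36. Reads were rounded for intervals. No test across replicates was possible. Gene names and products came from the R64 annotation. No sequence was read from it, because its build differs from that of the values. The members and lists were chosen with earlier results of these data known. Named genes were the members, every gene past 2-fold in lists of up to 10 measured genes, the extremes of the longer lists, and the nearest gene to each member. A gene that this rule names among the regulators is not reported here. GPM2, RPN12 and the other proteasome genes named beside RPN12 for their low NRO reads were added after their values were seen. Alternatives changed the scaling, pseudocount (0.01), read minimum (10), fold limit (1.5 and 3), interval rule, read length and bases counted. The steps were tested on simulated data. The tools were matplotlib 3.10.9, scipy 1.17.1, pandas 2.3.3 and numpy 2.4.6 in Python 3.11.15.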

Additional observations from a re-analysis of the deposited data

Results flagged for a closer look

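For 2 genes the change after heat shock in NRO differed from that in total RNA by more than counting error. For SKN7 the NRO change over the total RNA change was 2.53 (1.18 to 5.75), and for YAP1 it was 1.37 (1.01 to 1.88). The median of all genes was 1.15, which lies inside the interval of YAP1 and just below that of SKN7. The intervals cover counting error only, and a difference between cultures was not tested, since the replicates are merged.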

How the results depend on the processing

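The number of genes called at 2-fold, 2 for the NRO to total RNA ratio in log growth, 1 for that after heat shock, 2 for the NRO change, 1 for the total RNA change and 2 for the shift of the ratio, depended on the settings, as small counts do. With a pseudocount of 0.01 it was 1 in log growth (MSN4), 1 for the NRO change (MSN4), 0 for total RNA and 1 for the shift (MSN4). A minimum of 10 reads left 1 for the NRO change (YAP1) and 1 for the shift (SKN7), since it removes MSN4. A 3-fold limit left 1 in log growth (MSN4), 1 for the NRO change (MSN4), 0 for total RNA and 1 for the shift (MSN4). A 1.5-fold limit raised all 5 counts: 3 in log growth, 2 for the ratio after heat shock, 3 for the NRO change, 2 for total RNA and 3 for the shift. Centring on the median of all genes gave 0 for total RNA. A counting interval apart from 1 left 1 for the shift (SKN7), also with reads of 36 bases throughout. Of the 26 gene values, none changed sign among the called ones, and all stayed inside their counting intervals under the other scalings and the pseudocount, except that the centred total RNA change of YAP1 was 0.99 on the log2 scale. Scaling to the depth in transcript models, chosen after seeing the data, moved all NRO changes by 0.12 on the log2 scale and no call. No paired analysis was possible because each group has 1 pooled value, and for the same reason no replicate could be left out. The HAC1 intron comparison was not run, since HAC1 has no model. The 3 reads of MSN4 in NRO (HS) and the 12 of SKN7 in total RNA (HS) set the precision of the values that stand apart.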
